A study of Mus musculus with 7 samples.

Results

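The genes described here are 10 that were listed as surface genes of blood stem cells and early progenitors. They were measured as RNA in lin- bone marrow cells of *HRP-2* wild type (WT) and *HRP-2* knockout (KO) mice. These genes are *Kit*, *Flt3*, *Cd34*, *Muc13*, *Ly6a*, *Procr*, *Cd48*, *Cd27*, *Eng* and *Angpt1*, taken by name from the 25033 gene symbols in the count files. All 10 were present, and all 10 were among the 11265 genes that passed the filter on low counts. Of the 10, 9 encode proteins of the cell surface, whereas *Angpt1* encodes a secreted ligand and is a surface gene in name only.

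Bone marrow was taken from the femur and tibia of mice aged 6 to 8 weeks, and cells bearing lineage markers were removed with a negative selection kit, which leaves the lin- fraction. The WT group held 3 mice with both copies of the gene for HRP-2 (labelled Hrp2+/+) and the KO group held 4 mice with none (labelled Hrp2-/-), all on the C57BL/6N background and with no treatment of the cells. The knockout was systemic, so that the marrow stroma and all other tissues of the KO mice lacked the gene as well, and a difference in blood cells cannot be told apart from one that arises in their surroundings. The KO animals were those that lived to sampling age, in a line in which part of the knockouts die early.

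Stem cells and their first descendants carry no lineage markers, and are sorted from other marrow cells by combinations of surface proteins. KIT together with SCA-1, the product of *Ly6a*, marks the compartment that holds stem cells and multipotent progenitors. Within it FLT3, CD34, CD48, CD27, EPCR (the product of *Procr*) and endoglin (the product of *Eng*) separate long-lived stem cells from progenitors that are closer to commitment. The lin- fraction also holds many committed progenitors, so that the RNA of a marker gene in bulk is a sum over several kinds of cell. In such bulk samples fewer cells of a type and less RNA per cell cannot be told apart.

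The libraries held from 3525665 to 5605158 reads on genes, and from 3227 to 4890 of these, or 0.0741% to 0.109%, fell on the 10 genes. Levels are given in CPM, a unit that scales the reads of a gene to the reads on all genes of its library, here with the TMM factors of edgeR, and as mean ± SD over mice. *Hdgfl2*, the gene that encodes HRP-2, had 228, 156 and 168 reads in WT mice and 13, 3, 8 and 2 in KO mice, with a log2 fold change of −5.09 (SE 0.34, edgeR adjusted p = 1.38e-07). Defining genes of the tissue were present, with the progenitor granule gene *Mpo* at 5744 ± 929 CPM (n = 3) in WT and 5884 ± 780 CPM (n = 4) in KO. The ribosomal RNA precursor *Rn45s* made up between 4.94% and 20.6% of these reads. Of the KO libraries, 3 stood apart in the markers of other cells. KO replicate 3 had the highest summed level of late neutrophil markers (24711 CPM, where the other mice ranged from 7853 to 15601 CPM), and KO replicate 4 had the highest summed levels of stromal markers (871.3 CPM, with 38.2 to 151.7 CPM elsewhere) and megakaryocyte markers (943.9 CPM, with 106.4 to 385.2 CPM elsewhere). The stromal sum of KO replicate 4 came mostly from the collagen genes *Col1a1* (517.2 CPM) and *Col1a2* (301.7 CPM). *Cxcl12*, of the same list, was highest in KO replicate 3 (96.2 CPM, against 18.9 CPM in KO replicate 4). KO replicate 1 had the lowest summed levels of erythroid markers (70.4 CPM, with 133.1 to 287.8 CPM elsewhere) and of megakaryocyte markers.

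In WT cells *Cd34* was the highest of the 10 genes and *Procr* the lowest, and 9 of the 10 genes had a negative log2 fold change in KO cells. *Muc13* stood at 0.65 times its WT level, had the smallest p of the 10 genes, and was the only one of the 10 for which every KO mouse lay below every WT mouse. The 95% intervals of 8 genes reached to both sides of no difference, those of *Muc13* and *Angpt1* being the exceptions, and *Procr* alone had a positive log2 fold change. When edgeR's quasi-likelihood test was adjusted over all 11265 genes by the Benjamini-Hochberg method, none of the 10 passed the threshold of an adjusted p under 0.25, and 2 of the 10 (*Muc13* and *Angpt1*) had an unadjusted p under 0.05, both with the lower level in KO. With DESeq2, which was run without the filter on low counts and adjusted over 16365 genes, 1 of the 10, *Muc13*, passed, and so it did with edgeR's quasi-likelihood test when the same filter was dropped (16378 genes).

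Over all genes tested, 0.0178% passed an adjusted p of 0.25 in either direction, 2.07% had an unadjusted p under 0.05 with a lower level in KO and 1.56% had one with a higher level in KO. The share that passed 0.25 was 0.11% with DESeq2, 0.257% with edgeR's likelihood ratio test and 0.25% without the filter. All KO mice lay below all WT mice for 2.8% of the genes, against 1 of the 10 here, and above them for 2.37%, against 0 of the 10 here. A negative log2 fold change was found for 50.2% of all genes tested. The median log2 fold change of the 10 genes was −0.18, against −0.0014 over all genes tested. As each mouse was left out, the median of the 10 ranged from −0.28 (without WT replicate 2) to −0.12 (without WT replicate 1). The number with a negative log2 fold change was 7 without WT replicate 1 and also 7 without KO replicate 1, and it was 7 when KO replicates 3 and 4 were both left out. No test was made of the list as a whole.

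**Figure D1:**
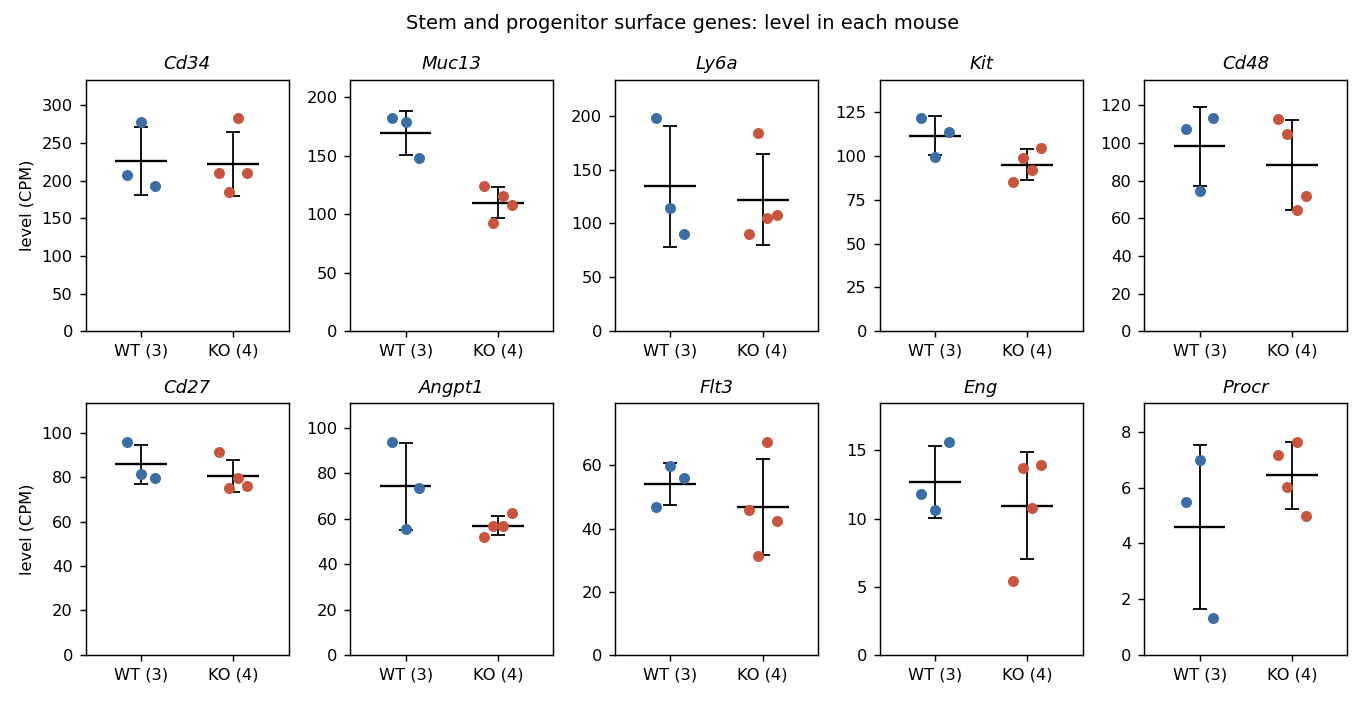
Level of each of the 10 genes in CPM (vertical axes, each from 0) in 3 WT and 4 KO mice. Points are mice, horizontal lines are means and error bars are SD, and *Muc13* is the only panel in which the points of the genotypes do not overlap.

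KIT and FLT3 are receptor tyrosine kinases, bound by stem cell factor and by FLT3 ligand, and both carry survival and growth signals in early blood cells. On chromosome 5 of GRCm38, *Kit* spans 75574916 to 75656722 and *Flt3* spans 147330741 to 147400489.

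*Kit* stood at 121.7, 99.7 and 113.7 CPM in WT replicates 1 to 3, and at 84.9, 98.9, 91.9 and 104.9 CPM in KO replicates 1 to 4. In KO mice 3 of 4 values were below the lowest WT value, and KO replicate 4 lay between WT replicates 2 and 3. The means were 111.7 ± 11.1 CPM (SD, n = 3) and 95.1 ± 8.64 CPM (SD, n = 4), and the log2 fold change was −0.23 (SE 0.14, 95% interval −0.53 to 0.06, edgeR adjusted p = 0.999). Permuting the genotypes over all 35 ways to divide 7 mice into 3 and 4 (an exact two-sided test on log2(CPM + 1)) gave p = 0.114, where 0.0286 is the smallest it can give. *Kit* varied less among mice than most genes, with a biological coefficient of variation of 14.4% against a median of 20.2% over all genes tested. The interval holds levels of *Kit* RNA from 0.69 to 1.05 times that of WT cells.

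*Flt3* stood at 46.8, 59.8 and 55.9 CPM in WT mice and at 45.9, 31.3, 67.5 and 42.2 CPM in KO mice. The KO mice held both the lowest and the highest value of all 7, in replicates 2 and 3, and the WT mice lay between these. The means were 54.2 ± 6.65 CPM (n = 3) and 46.7 ± 15.2 CPM (n = 4), and the log2 fold change was −0.21 (SE 0.22, 95% interval −0.66 to 0.25, edgeR adjusted p = 0.999). Its value was −0.44 without KO replicate 3 and −0.06 without KO replicate 2.

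CD34 is a sialomucin of progenitors and vessel cells, and MUC13 is a transmembrane mucin found on gut epithelium and on blood progenitors. *Cd34* lies on chromosome 1 from 194938819 to 194961279, and *Muc13* on chromosome 16 from 33794037 to 33819934.

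*Muc13* stood at 182.3, 179.1 and 147.9 CPM in WT mice, from 833, 641 and 558 reads. In KO mice it stood at 124.1, 92.7, 115.4 and 108.1 CPM, from 640, 447, 619 and 435 reads. The highest KO value, that of replicate 1, was thus below the lowest WT value, that of replicate 3. The means were 169.8 ± 19.0 CPM (SD, n = 3) and 110.0 ± 13.3 CPM (SD, n = 4), a difference larger than the spread in either genotype. The log2 fold change was −0.62 (SE 0.14, 95% interval −0.92 to −0.33), which is 0.65 times the WT level with an interval from 0.53 to 0.80 times. The exact permutation p was 0.0286, the smallest that 3 against 4 mice allow. *Muc13* ranked 6 of 11265 genes by its unadjusted p, and its adjusted p was 0.544 in edgeR's quasi-likelihood test.

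Whether *Muc13* was called depended on the test and the filter, while its size did not. The adjusted p was 0.128 with DESeq2, 0.156 with edgeR's likelihood ratio test and 0.0395 with edgeR's quasi-likelihood test and no filter on low counts, and it was 0.498 with limma-voom. In the quasi-likelihood test with the filter it was 0.9999 with no scaling factors. As each mouse was left out of that test, it ranged from 0.451 (without KO replicate 1) to 0.9999 (without KO replicate 2), with 0.972 without WT replicate 1. The log2 fold change stayed between −0.71 and −0.55 in all 20 alternatives, those that left out 1 mouse among them.

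*Muc13* was also set against the other genes of the group. It held 17.0%, 18.7% and 16.7% of the reads on the 10 genes in WT mice, and 15.1%, 10.9%, 13.1% and 13.5% in KO mice (exact permutation p = 0.0571). The shares of the other 9 genes overlapped between genotypes. The ratio of *Muc13* to *Cd34* in CPM was 0.880, 0.646 and 0.765 in WT mice and 0.593, 0.502, 0.408 and 0.515 in KO mice. Those to *Cd27* and *Procr* did not overlap between genotypes either, and the ratios of *Muc13* to the other 6 genes did. These shares and ratios were computed after the levels had been seen, and they restate the same *Muc13* reads.

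Markers restricted to stem cells, a list that holds *Procr* itself, summed to 138.3, 128.5 and 129.9 CPM in WT mice and to 103.3, 116.5, 120.8 and 135.2 CPM in KO mice. Of these 11 markers 7 were tested, 5 with a negative log2 fold change and a median of −0.18, and 0 had an unadjusted p under 0.05 or passed the adjusted p of 0.25 in edgeR, DESeq2 or limma-voom. The highest, the transcription factor gene *Hlf*, stood at 43.5 ± 3.81 CPM (n = 3) and 43.8 ± 3.65 CPM (n = 4). *Fgd5*, a marker of long-lived stem cells that did not pass the filter, had 5, 11 and 6 reads in WT mice and 0, 0, 2 and 0 reads in KO mice (exact permutation p = 0.0286).

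Summed macrophage and eosinophil markers, like *Muc13*, were lower in every KO mouse than in every WT mouse. Within a genotype the order of the mice differed. WT replicate 1 and KO replicate 1 had the highest *Muc13* of their genotype but the lowest macrophage sum. The eosinophil sum was highest in WT replicate 3, the lowest WT mouse for *Muc13*. Of the KO mice, replicate 1 was highest for both the eosinophil sum and *Muc13*. Macrophage markers summed to between 388.7 and 447.9 CPM in WT mice and to between 277.6 and 320.2 CPM in KO mice. Of 11 macrophage markers tested, 10 had a negative log2 fold change, and the complement gene *C1qc*, with the smallest p, stood at 34.3 ± 2.56 CPM (n = 3) against 17.2 ± 1.12 CPM (n = 4), edgeR adjusted p = 0.322. The most abundant, the adhesion gene *Vcam1*, stood at 187.6 ± 34.0 against 148.2 ± 16.3 CPM. Eosinophil markers summed to between 1192 and 1415 CPM in WT and between 956.8 and 1033 CPM in KO mice, and 7 of the 8 tested had a negative log2 fold change, led in level by the granule gene *Prg2*. Mast cell and basophil markers overlapped between genotypes in their sum (3483 to 3940 CPM against 2366 to 3659 CPM), with 7 of 8 negative. Late neutrophil markers, led by *S100a8*, had a positive log2 fold change in 10 of 10 genes, at 7853 to 10947 CPM in WT and 8951 to 24711 CPM in KO mice. None of the markers in these 4 lists passed the adjusted p of 0.25 in edgeR's quasi-likelihood test. An unadjusted p under 0.05 was found for 8 of the macrophage, 3 of the eosinophil, 2 of the mast cell and basophil and 0 of the late neutrophil markers, always with the lower level in KO. With DESeq2, 1 macrophage marker (*C1qc*) and 1 mast cell marker (*Slc18a2*, a vesicular amine transporter) passed 0.25, both lower in KO. The likelihood ratio test called these and also *C1qa* and the eosinophil marker *Prg3*, all lower in KO. Without the filter on low counts, the quasi-likelihood test called *C1qc*, *Slc18a2* and *Prg3*, lower in KO, and the late neutrophil marker *Ly6g*, higher in KO. Their part in the difference of *Muc13* was not tested. Without KO replicates 3 and 4, the log2 fold change of *Muc13* was −0.65.

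**Figure D2:**
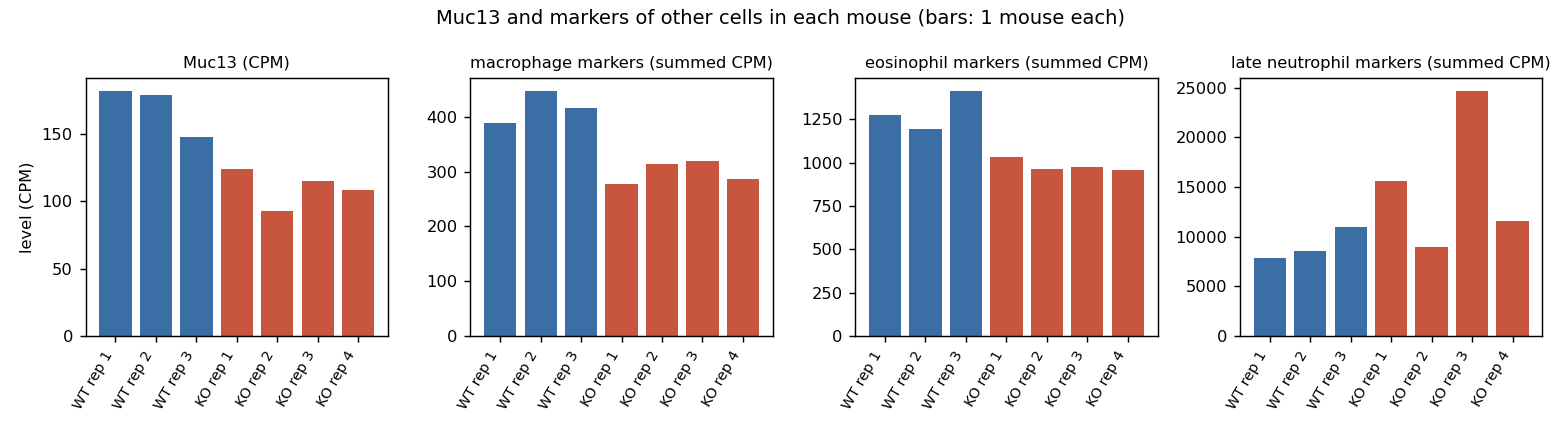
Level of *Muc13* and the summed levels of macrophage, eosinophil and late neutrophil markers in CPM (vertical axes, from 0), 1 bar for each mouse, WT in blue and KO in red. Every KO bar is below every WT bar for *Muc13*, the macrophage and the eosinophil markers, while KO replicate 3 is highest for the late neutrophil markers at 24711 CPM.

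*Cd34* stood at 207.2, 277.2 and 193.2 CPM in WT mice and at 209.4, 184.5, 282.9 and 210.0 CPM in KO mice. The genotypes covered nearly the same range, with 1 high mouse in each, WT replicate 2 and KO replicate 3. The means were 225.9 ± 45.0 CPM (n = 3) and 221.7 ± 42.5 CPM (n = 4), and the log2 fold change was −0.03 (SE 0.16, 95% interval −0.37 to 0.32, edgeR adjusted p = 0.999). The interval holds levels from 0.78 to 1.24 times that of WT. Without WT replicate 2 the log2 fold change was 0.15, and without KO replicate 3 it was −0.17. An antisense gene, *Gm16897*, overlaps an annotated end of *Cd34* and had between 1 and 10 reads, few beside the 729 to 1518 of *Cd34*.

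**Figure D3:**
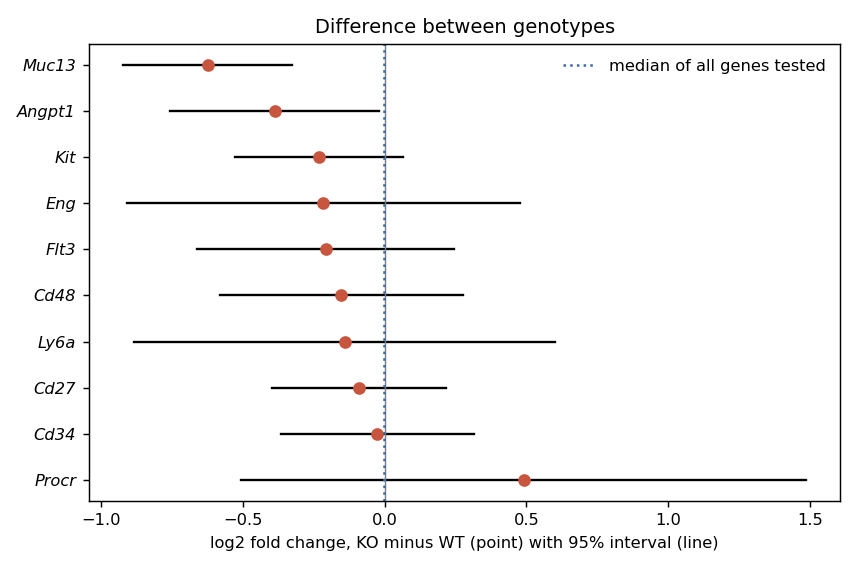
Log2 fold change of each of the 10 genes in KO against WT cells (horizontal axis), with points for the edgeR estimate and lines for its 95% interval. The dotted line marks the median of all genes tested, and the intervals of *Muc13* (−0.92 to −0.33) and *Angpt1* (−0.76 to −0.02) lie to the left of it.

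SCA-1 and EPCR, a receptor for activated protein C that marks long-lived stem cells, stand at the surface of these cells together with CD48, a SLAM family protein that stem cells lack and progenitors gain. *Ly6a* lies on chromosome 15 from 74994877 to 74998031, *Procr* on chromosome 2 from 155751117 to 155755471 and *Cd48* on chromosome 1 from 171682009 to 171705258.

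*Ly6a* stood at 197.8, 114.5 and 90.6 CPM in WT mice and at 90.5, 184.3, 105.5 and 107.9 CPM in KO mice. In each genotype 1 mouse was far above the rest, WT replicate 1 and KO replicate 2, with 2.18-fold between the highest and lowest WT mouse and 2.04-fold between the highest and lowest KO mouse. The means were 134.3 ± 56.3 CPM (n = 3) and 122.0 ± 42.2 CPM (n = 4), and the log2 fold change was −0.14 (SE 0.32, 95% interval −0.89 to 0.60, edgeR adjusted p = 0.999). Without WT replicate 1 it was 0.26, and without KO replicate 2 it was −0.41. The coefficient of variation expected from counting alone was 4.18% for *Ly6a*, against 41.9% found among WT mice and 34.6% among KO mice. *Ly6a* belongs to a family of similar genes on the same chromosome, between which reads near the transcript end can be divided.

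*Procr* had 25, 25 and 5 reads in WT mice and 37, 29, 41 and 20 reads in KO mice. These amounted to 5.47, 6.98 and 1.33 CPM in WT and 7.17, 6.01, 7.64 and 4.97 CPM in KO. WT replicate 3 alone was far below the other 6 mice, and its 5 reads have an exact Poisson 95% interval from 1.62 to 11.7, which covers counting error only. The means were 4.59 ± 2.93 CPM (n = 3) and 6.45 ± 1.20 CPM (n = 4), and the log2 fold change was 0.49 (SE 0.47, 95% interval −0.51 to 1.49, edgeR adjusted p = 0.999). It was 0.06 without WT replicate 3 and 0.90 without WT replicate 2. The coefficient of variation of *Procr* expected from counting alone was 19.6%, against 63.8% found among WT mice and 18.6% among KO mice.

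*Cd48* stood at 107.2, 74.3 and 113.2 CPM in WT mice and at 112.6, 104.9, 64.3 and 71.8 CPM in KO mice. KO replicates 1 and 2 lay within the WT range and KO replicates 3 and 4 below all WT values. The means were 98.2 ± 20.9 CPM (n = 3) and 88.4 ± 23.9 CPM (n = 4), and the log2 fold change was −0.15 (SE 0.20, 95% interval −0.58 to 0.28, edgeR adjusted p = 0.999). As each mouse was left out it ranged from −0.32 (without WT replicate 2) to −0.026 (without KO replicate 3), with −0.29 without KO replicate 1, −0.040 without WT replicate 3 and −0.067 without KO replicate 4, and with KO replicates 3 and 4 both left out it was 0.15. T and NK cell markers were lowest in the same 2 mice, with sums of 576.0 and 562.6 CPM in KO replicates 3 and 4 and of 741.0 to 788.1 CPM in the other 5 mice. CD48 is also carried by lymphocytes. KO replicates 3 and 4 had the highest summed late neutrophil and stromal markers, respectively, the latter mostly from collagen genes. The part of these markers in the level of *Cd48* was not tested.

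CD27, a receptor of the TNF receptor family, is gained by multipotent progenitors, and endoglin is a co-receptor for ligands of the TGF-beta family on stem cells, early erythroid cells and vessel cells. *Cd27* lies on chromosome 6 from 125232622 to 125237010, and *Eng* on chromosome 2 from 32646595 to 32682669.

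*Cd27* stood at 95.9, 81.6 and 79.5 CPM in WT mice and at 91.1, 75.2, 79.6 and 75.8 CPM in KO mice. The values of the genotypes ran through each other, and the spread within each genotype was about as small as that of *Kit*, with a biological coefficient of variation of 14.6%. The means were 85.6 ± 8.90 CPM (n = 3) and 80.4 ± 7.38 CPM (n = 4), and the log2 fold change was −0.09 (SE 0.15, 95% interval −0.40 to 0.22, edgeR adjusted p = 0.999). Without WT replicate 1 it was 0.0062, and without KO replicate 1 it was −0.15. *Vamp1*, on the other strand, overlaps an annotated end of *Cd27* and had 37 to 68 reads, and since the strand counted is not given in the sources used here, some reads may belong to either gene.

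*Eng* had 54, 38 and 59 reads in WT mice and 28, 66, 58 and 56 reads in KO mice, or 11.8, 10.6 and 15.6 CPM and 5.43, 13.7, 10.8 and 13.9 CPM. KO replicate 1 was far below all other mice, and the other 3 KO mice lay within the WT range. The means were 12.7 ± 2.62 CPM (n = 3) and 10.96 ± 3.95 CPM (n = 4), and the log2 fold change was −0.22 (SE 0.33, 95% interval −0.91 to 0.48, edgeR adjusted p = 0.999). Without KO replicate 1 it was 0.013, without WT replicate 3 it was −0.04, and without KO replicate 4 it was −0.35. Summed erythroid markers were 133.1, 251.7 and 198.2 CPM in WT mice and 70.4, 144.7, 142.6 and 287.8 CPM in KO mice. KO replicate 1 was thus lowest, and KO replicate 4 the highest KO mouse, both for these and for *Eng*. Among WT mice this match did not hold, as replicate 2 was highest for erythroid markers and lowest for *Eng*. Of the 11 erythroid markers, the 4 globin genes *Hba-a1*, *Hba-a2*, *Hbb-bs* and *Hbb-bt* were listed at 0 in every mouse, and the part of erythroid cells in *Eng* was not tested. The neighbour *Fpgs*, on the other strand, had 33 to 79 reads and overlaps an annotated end of *Eng*.

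*Angpt1* encodes angiopoietin-1, a secreted ligand of the receptor TIE2 that is made by stem and progenitor cells as well as by stromal cells. It lies on chromosome 15 from 42424723 to 42676977. *Angpt1* stood at 93.9, 55.6 and 73.4 CPM in WT mice and at 51.8, 57.0, 56.7 and 62.4 CPM in KO mice. The KO mice lay close together, near WT replicate 2, while WT replicates 1 and 3 were above all of them. The means were 74.3 ± 19.2 CPM (n = 3) and 56.9 ± 4.34 CPM (n = 4), and the log2 fold change was −0.39 (SE 0.18, 95% interval −0.76 to −0.02). Its unadjusted p of 0.0407 in edgeR's quasi-likelihood test became an adjusted p of 0.999, and the exact permutation p was 0.171. Without WT replicate 1 the log2 fold change was −0.17, so that its size rested in good part on that mouse. Summed stromal markers were 65.0, 102.5 and 38.2 CPM in WT mice and 73.1, 86.6, 151.7 and 871.3 CPM in KO mice. KO replicate 4, the highest of these and mostly through collagen genes, was also the highest KO mouse for *Angpt1*. WT replicates 1 and 3, the highest of all mice for *Angpt1*, had the lowest stromal sums. The part of stromal cells in *Angpt1* was not tested.

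**Figure D4:**
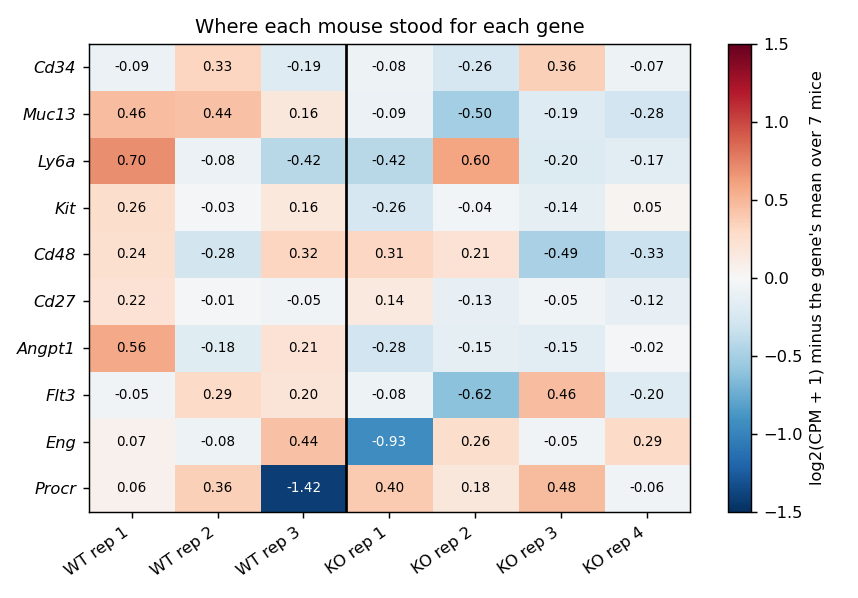
Distance of each mouse (columns) from the mean over the 7 mice for each of the 10 genes (rows), as log2(CPM + 1), with red above and blue below the mean. WT replicate 1 is highest for 5 genes, and the lowest cell is *Procr* in WT replicate 3, at −1.42.

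No mouse carried the differences of all 10 genes. WT replicate 1 was the highest of 7 mice for 5 genes (*Kit*, *Muc13*, *Ly6a*, *Cd27* and *Angpt1*), and its median distance from the gene means was 0.23 on the log2(CPM + 1) scale. WT replicate 3 had a median distance of 0.16, WT replicate 2 of −0.02, and the 4 KO mice lay between −0.10 and −0.08. KO replicates 1 and 2 were lowest for 4 genes each, and KO replicate 3 was highest for 3 genes (*Flt3*, *Cd34* and *Procr*). The biological coefficient of variation ran from 14.4% for *Kit* to 36.8% for *Procr*, so that the precision differed between genes.

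The libraries were made from the 3′ ends of transcripts, with 1 fragment per transcript, and CPM was therefore not divided by length when genes were set in order. In WT cells the order of the mean levels was *Cd34*, *Muc13*, *Ly6a*, *Kit*, *Cd48*, *Cd27*, *Angpt1*, *Flt3*, *Eng* and *Procr*. Of the 9 pairs of neighbours in that order, those that did not overlap over the 3 WT mice were *Cd34* and *Muc13*, *Flt3* and *Eng*, and *Eng* and *Procr*. In KO cells *Ly6a* stood second and *Muc13* in the next place, and the order was otherwise that of WT cells. Among all 25033 symbols, *Cd34* ranked 678 by its WT level and *Procr* 9987.

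The same comparison was made for other surface genes and for the partners of the 10 genes, from lists written by hand with earlier results of these data known. None of the genes in these 7 lists passed an adjusted p of 0.25 in edgeR's quasi-likelihood test, in limma-voom, in DESeq2 or in edgeR's likelihood ratio test. With no filter on low counts 2 of them did, *Ly6g* and *Ly6k*, both higher in KO. Of 14 other surface genes of stem cells and multipotent progenitors, 9 were tested, 4 with a positive and 5 with a negative log2 fold change and a median of −0.05, and 0 had an unadjusted p under 0.05. *Adgrg1*, an adhesion receptor and the highest of these, stood at 446.6 ± 175.0 CPM (n = 3) in WT and 386.6 ± 141.6 CPM (n = 4) in KO. *Esam*, an adhesion molecule of stem cells and vessels, had the smallest p, with a log2 fold change of −0.64 (SE 0.48, edgeR adjusted p = 0.999). *Slamf1*, which encodes the stem cell marker CD150, did not pass the filter, with 9, 7 and 8 reads in WT mice and 2, 6, 2 and 2 reads in KO mice. These amounted to 2.02 ± 0.0912 CPM (n = 3) and 0.625 ± 0.416 CPM (n = 4), with every KO mouse below every WT mouse (exact permutation p = 0.0571). Exact Poisson 95% intervals of single mice ran from 2.81 to 17.1 reads in WT and from 0.242 to 13.1 in KO. They cover the counting error of 1 mouse at a time and do not compare the genotypes.

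Of 15 surface genes used to gate committed progenitors, 10 had a positive log2 fold change, with a median of 0.11, and 2 had an unadjusted p under 0.05, both higher in KO, where 1.56% of all genes tested were. *Ly6c2*, which encodes the myeloid antigen LY6C2, was the highest of these and had the smallest p, at 1229 ± 63.6 CPM (n = 3) in WT and 1557 ± 301 CPM (n = 4) in KO (log2 fold change 0.34, edgeR adjusted p = 0.999). Of 10 surface genes shared by most leukocytes, 3 were positive and 7 negative, with a median of −0.04, and *Cd47* alone had an unadjusted p under 0.05. *Cd47*, the signal that protects cells from being engulfed, stood at 544.5 ± 54.1 CPM (n = 3) and 452.5 ± 26.01 CPM (n = 4), with every KO mouse below every WT mouse and a log2 fold change of −0.27 (edgeR adjusted p = 0.999). *Cd52*, the highest of that list by its mean over all mice though below *Cd47* in WT mice, had a log2 fold change of 0.22.

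Of 15 ligands and partners of the 10 genes, 11 were tested, 6 with a positive and 5 with a negative log2 fold change and a median of 0.07. *Kitl*, the gene of stem cell factor, had 9, 3 and 0 reads in WT and 13, 8, 22 and 3 reads in KO mice and was not tested. *Flt3l*, the gene of FLT3 ligand, stood at 29.5 ± 13.4 CPM (n = 3) and 34.99 ± 5.30 CPM (n = 4). *Tek*, the gene of TIE2, had between 0 and 7 reads per mouse. *F2r*, which encodes the thrombin receptor PAR1 that EPCR with activated protein C can switch on, alone had an unadjusted p under 0.05, at 65.4 ± 10.01 CPM (n = 3) and 44.1 ± 15.7 CPM (n = 4), with a log2 fold change of −0.58 (edgeR adjusted p = 0.999). The CD27 ligand gene *Cd70* and the endoglin ligand gene *Gdf2* were at 0 reads in all 7 mice, where 3 reads, the limit that a count of 0 allows, correspond to 0.559 to 0.838 CPM. *Cd244a*, which encodes a SLAM family receptor that binds CD48, had a log2 fold change of 0.17, and the TGF-beta receptor genes *Tgfbr1* and *Tgfbr2* had −0.15 and −0.39.

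Signalling genes downstream of KIT and FLT3 were 12 positive and 18 negative among 30 tested, with a median log2 fold change of −0.02, and 1 in each direction had an unadjusted p under 0.05. *Dusp6*, a phosphatase of the ERK pathway, had the smallest p of these, at 149.0 ± 39.4 CPM (n = 3) in WT and 201.6 ± 42.3 CPM (n = 4) in KO (log2 fold change 0.44, edgeR adjusted p = 0.999). *Pik3cd*, a catalytic subunit of PI3 kinase and the highest of the list, had 0.10. In the family of *Ly6a*, 5 of 8 genes tested were positive, with a median of 0.30, led in level by *Ly6c2*, and 2 had an unadjusted p under 0.05, both higher in KO. In the SLAM family, to which *Cd48* belongs, 1 of 8 was positive and 7 were negative, with a median of −0.08, 0 had an unadjusted p under 0.05, and *Slamf7* had the smallest, at a log2 fold change of −0.26 (edgeR adjusted p = 0.999).

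**Figure D5:**
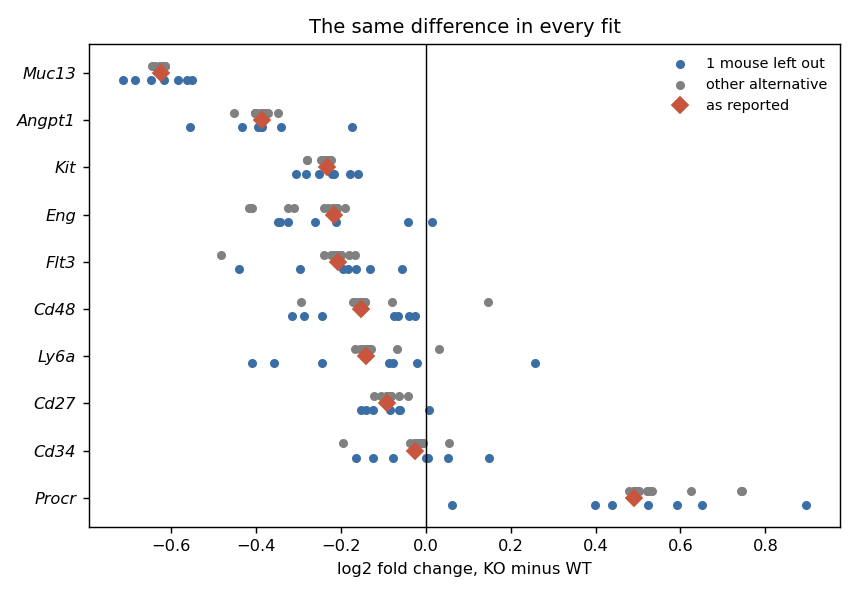
Log2 fold change of each of the 10 genes in KO against WT cells (horizontal axis) as reported (diamonds), with 1 mouse left out (blue points) and under the other alternatives (grey points). *Muc13* stays between −0.71 and −0.55, whereas the points of *Cd34*, *Cd27*, *Ly6a*, *Cd48* and *Eng* lie on both sides of 0.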

How the data were processed

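RNA from lin- bone marrow cells of 3 WT and 4 KO mice was made into 3′ mRNA libraries from 500 ng of RNA, sequenced as 75 bp single reads. Alignment by the authors was to GRCm38 with STAR, on Ensembl annotation version 84, and they deposited counts per gene symbol, whole numbers without normalization. The strand counted is not given in the sources used here. The 5 tally rows of each file were left out, with 27.0% to 31.6% of all tallied reads on no gene and 1.99% to 2.40% ambiguous.

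In edgeR 4.0.16 (R 4.3.3), TMM factors, filterByExpr and the quasi-likelihood test were applied to the whole table without covariates, with Benjamini-Hochberg adjustment and the study's threshold of 0.25. Exact permutation tests of single genes used log2(CPM + 1). Alternatives were DESeq2 1.42.0, limma-voom (limma 3.58.1), edgeR's likelihood ratio test, other scalings, filters and pseudocounts, thinning, the replicate number as a block and the omission of each mouse. The *Rn45s* share as a covariate and the joint omission of KO replicates 3 and 4 were added after the data had been seen. The scripts were tested on simulated data.

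The 10 genes and all lists, which were written by hand, were chosen with earlier results of these data known. Eligible to be named were the gene with the smallest p and the highest gene of each list of surface, partner and signalling genes, receptors, ligands and stem cell markers set by name (*Slamf1* among them), and, of each list of cell type markers, the highest gene and those at 0 in all mice. Not every eligible gene is reported here. Overlapping neighbours, *Fgd5*, *C1qa*, *C1qc*, *Prg3*, *Slc18a2*, *Ly6g*, *Ly6k*, *Col1a2* and *Cxcl12* were picked once their values had been seen. Positions come from GENCODE M21 (GRCm38). The labels do not say how mice relate to litters or days, so p-values measure the spread between these mice. Libraries of the same genotype all differed beyond the sampling noise of their counts. Floors and Poisson intervals cover counting error only.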

Additional observations from a re-analysis of the deposited data

How the results depend on the processing

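In edgeR's quasi-likelihood test none of the 10 genes passed an adjusted p of 0.25. The number that passed was 1 with DESeq2, 1 with edgeR's likelihood ratio test and 1 with no filter on low counts, *Muc13* in each case, and over all genes these called 18, 29 and 41 against 2. The median log2 fold change of the 10 genes, −0.18, ranged from −0.28 (without WT replicate 2) to −0.12 (without WT replicate 1) as each mouse was left out. The sign changed within the same omissions for *Ly6a* (−0.41 to 0.26), *Cd34* (−0.17 to 0.15), *Cd27* (−0.15 to 0.0062) and *Eng* (−0.35 to 0.013). With the *Rn45s* share as a covariate *Cd34* was at 0.055, and with KO replicates 3 and 4 left out *Ly6a* was at 0.030 and *Cd48* at 0.15. The exact permutation p of *Muc13* was 0.0571 with no scaling factors. The causes were not tested. With at least 10 reads in every mouse, *Procr* and *Hdgfl2* were not tested. Same-numbered WT and KO mice did not deviate together (correlations of −0.02, −0.21 and −0.16), and with a replicate block the median was −0.15, *Muc13* was at −0.62 (edgeR adjusted p = 1.00) and 1 gene in all was called. Counting error was largest for *Procr* and *Eng*, with a coefficient of variation from counting alone of 19.6% and 13.96%, against 3.16% to 6.70% for the other 8 genes.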
